A study of Mus musculus with 6 samples.

Results

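The transcripts described here encode the core of the route by which a macrophage senses DNA or RNA in its cytosol and answers with type I interferon. They were chosen by name, as 10 of the 24062 genes listed in the count files: the DNA sensors Mb21d1 (cGAS) and Ifi204, the DNA exonuclease Trex1, the adaptors Tmem173 (STING) and Mavs, the kinases Tbk1 and Ikbke, the transcription factor Irf3, the cytokine gene Ifnb1 and the receptor subunit gene Ifnar1. All 10 were found, and all are annotated as protein coding. RNA was sequenced from RAW264.7 cells, a mouse macrophage line from a virus-induced tumour, in 6 conditions with 1 library each, made from RNA pooled over several wells. M0 cells received no polarizing agent, M1 cells received LPS at 100 ng/mL with IFN-γ at 20 ng/mL, and M2 cells received IL-4 at 20 ng/mL, each for 24 h. RM0, RM1 and RM2 cells were the same states given 10 Gy of gamma rays from a caesium source and kept for 24 h more. The labels do not say whether the non-irradiated cells were kept for those added hours, so irradiation and time in culture cannot be told apart. The labels give both a bone marrow tissue and the RAW264.7 line.

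Double-stranded DNA in the cytosol, from a virus, a damaged nucleus or mitochondria, is bound by cGAS, which makes the cyclic dinucleotide cGAMP. cGAMP binds STING on the endoplasmic reticulum, STING moves to the Golgi and recruits TBK1, and TBK1 phosphorylates IRF3, which enters the nucleus and switches on Ifnb1. RNA reaches the same kinases by another door: RIG-I and MDA5 bind it and signal through MAVS on the mitochondrial membrane. Interferon-beta then leaves the cell, binds IFNAR1 with IFNAR2, and drives a second wave of genes through the transcription factor complex ISGF3. TREX1 sits upstream as a brake, since it degrades cytosolic DNA before cGAS can bind it. Most of these steps are changes in protein location or phosphorylation, which a transcript count does not measure.

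The libraries held between 17894937 and 18870516 counted reads, and no 2 libraries were identical. Of 10 macrophage markers, 9 had over 10 counts in every library, while Mertk had between 3 and 8. Of 8 lymphocyte markers 6 were at 0 in all libraries, and the 8 together summed to between 1 and 5 counts. Of 7 fibroblast markers, Col1a2 and Col3a1 were at 0 in all libraries, but the list summed to 43.8 and 45.9 CPM (counts scaled to library size) in M1 and RM1 against 6.71 to 10.3 in the other 4 libraries, nearly all of it from Dcn. Whether that signal has a part in the M1 differences below was not tested. Nos2, the nitric oxide synthase gene that marks M1 activation, had 169925 counts in M1 and 129631 in RM1 against 10749 to 22038 elsewhere.

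Levels are given as CPM scaled by the trimmed mean of M values (TMM), which assumes that most genes do not change. Per kilobase of exon, the mean level over the 6 libraries was highest for Ifi204 at 26.5 CPM per kb (range 8.73 to 66.9) and Trex1 at 24.8 (8.31 to 54.8), and their ranges overlapped. That rank rests on M1 and RM1. In M0 Ifi204 stood at 10.4 CPM per kb, below Irf3 at 11.0 and the 4 genes of the band described next, and Trex1 at 14.2. Tbk1 at 17.5 (14.8 to 22.3), Mavs at 15.8 (14.7 to 18.3), Ifnar1 at 14.7 (12.0 to 19.2) and Tmem173 at 13.4 (10.8 to 15.3) formed a middle band in which each neighbour overlapped the next. Irf3 at 9.06 (7.27 to 11.0) reached just into that band. Mb21d1, at 4.14 (2.88 to 5.1), lay below all libraries of Irf3 and above all libraries of Ikbke, at 2.5 (2.0 to 2.85). These lengths merge all annotated exons of a gene, 9018 bases for Ikbke and 3442 for Irf3. Their longest single transcripts have 5856 and 2031 bases. With the longest transcript as the length, the ranges of Ikbke and Mb21d1 would overlap and Irf3 would reach further into the band. The ranks thus depend on that choice. Ifnb1 was lowest, at 0.315 (0 to 0.672). Per length, the adaptor and Tbk1 transcripts were thus severalfold more abundant than those of the sensor cGAS and the kinase IKKε, and the interferon gene itself was close to the limit of detection.

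**Figure D1:**
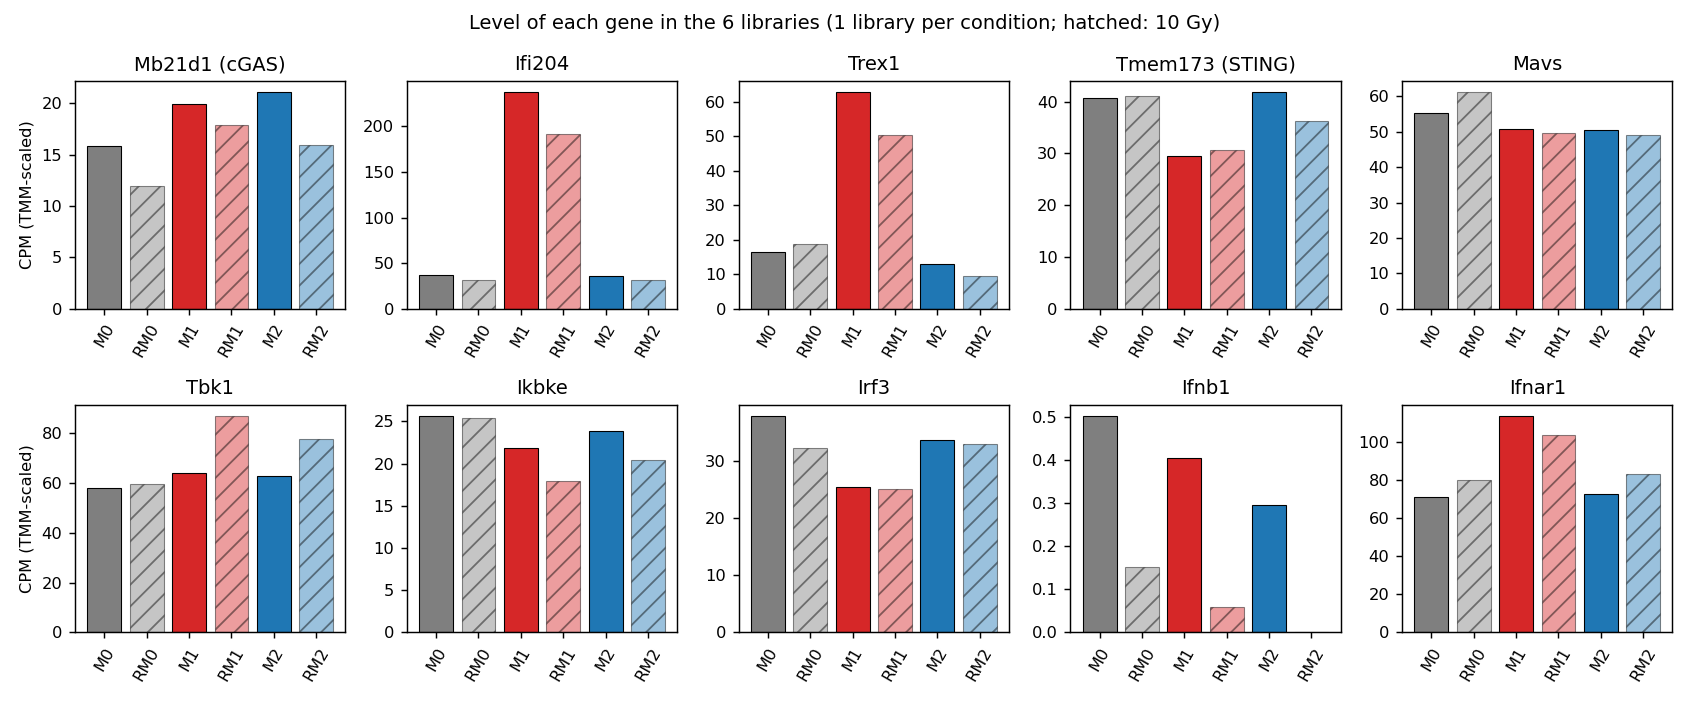
Level of each of the 10 genes in TMM-scaled CPM (vertical axes start at 0 and differ between panels) in the 6 libraries, with irradiated libraries hatched and 1 library per bar, so no error bar. Ifi204 and Trex1 stand far higher in M1 and RM1, and Ifnb1 stays under 0.6 CPM with its 3 irradiated bars below its 3 non-irradiated bars.

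The design asks what M1 polarization, M2 polarization and irradiation each did to these transcripts, 3 comparisons in all. With 1 library per condition a pair of libraries has no replicate spread, so its log2 fold change is given with a 95% interval that covers counting error only, and without a p-value. The tests come from an additive model over the 6 libraries in edgeR, in which the states stand in for replicates of irradiation and the radiation levels for replicates of polarization, with Benjamini-Hochberg adjustment over 11574 genes. Ifnb1 had too few counts for that test, which left 9 of the 10 genes.

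M1 polarization moved 7 of the 9 tested genes past the threshold, Ifi204, Trex1, Ifnar1 and Mb21d1 upward and Tmem173, Irf3 and Ikbke downward. By DESeq2 4 passed, Ifi204, Trex1, Ifnar1 and Irf3, and over all genes 4469 did, against 5509 by edgeR. Of all genes tested, 47.6% passed by edgeR in either direction (23.3% higher, 24.3% lower), so passing this test was common in M1 cells. The sizes set Ifi204 and Trex1 apart: their absolute changes were at the 98.2 and 94.3 percentiles of all genes, whereas the other 7 lay between the 27.4 and 59.4 percentiles. By pairs of libraries, 2 of 10 genes with enough counts differed at least 2-fold in M1 against M0 (22.7% of all genes) and 2 of 9 in RM1 against RM0 (14.0%), in each case Ifi204 and Trex1. No gene of the 10 differed 2-fold in M2 against M0 (1.44% of all genes) and none of 9 in RM2 against RM0 (2.61%). M2 polarization moved 0 of 9 past the test by edgeR (0.19% of all genes), with 2 at an unadjusted p under 0.05 (10.1% of all genes). By DESeq2 it moved 0, where 42 passed over all genes, with 1 at an unadjusted p under 0.05. Irradiation moved 0 of 9 by edgeR (0.475% of all genes), with 3 at an unadjusted p under 0.05 (14.7% of all genes). By DESeq2 it moved 0, where 115 passed over all genes, with 0 at that unadjusted level. The shares of all genes at that level by DESeq2 are not given here.

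**Figure D2:**
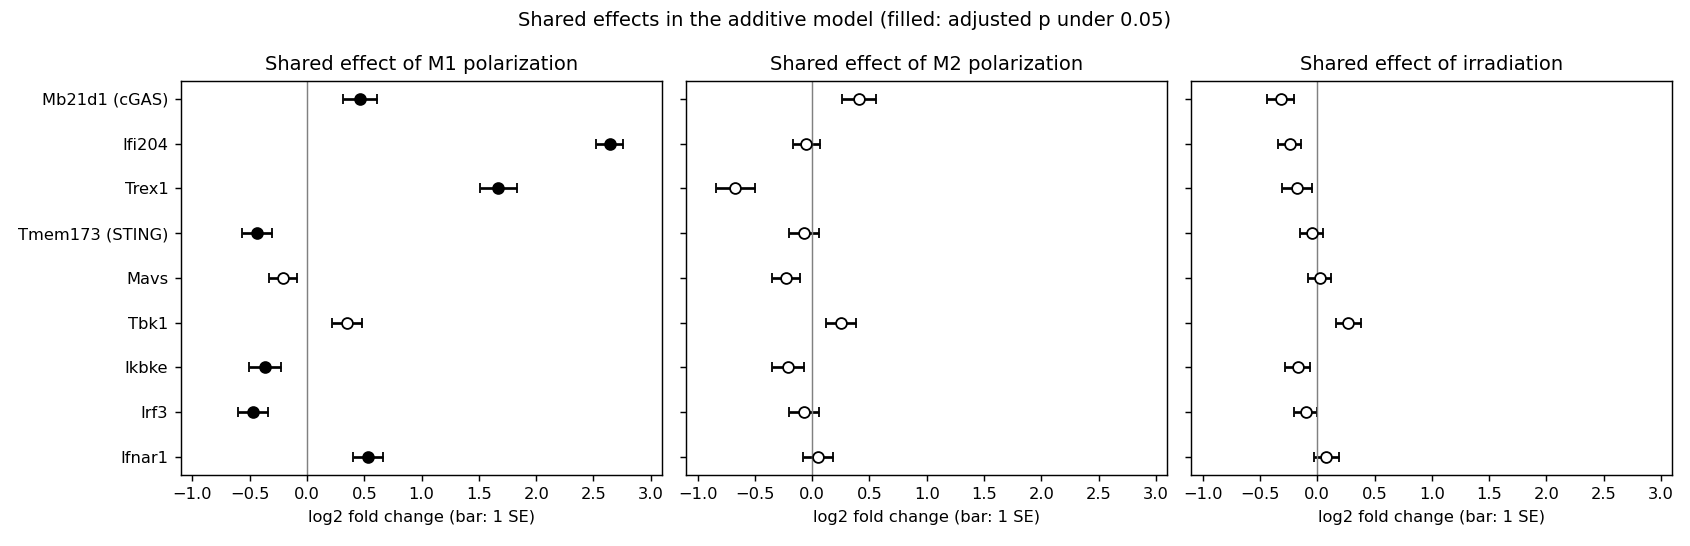
Log2 fold change (horizontal axis) of the 9 tested genes for the shared effects of M1 polarization, M2 polarization and irradiation, with bars of 1 standard error and filled points for an edgeR adjusted p under 0.05. Filled points occur in the M1 panel alone, where Ifi204 at 2.64 and Trex1 at 1.67 lie far to the right of the rest, and the points of the irradiation panel lie between -0.32 and 0.27.

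Scaling bears on every M1 value. Scaling by library totals instead of TMM lowered the median of all genes by 0.34 on the log2 scale in the shared M1 effect. The median fell by 0.44 in M1 against M0 and by 0.25 in RM1 against RM0. All M1 values are therefore changes relative to the median gene, and those of these sizes or smaller can vanish or turn with the scaling. Ratios of 2 genes within a library do not depend on any scaling and are given where they help.

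Mb21d1 (NM_173386, mm10 chr9:78430518-78443147, minus strand) encodes cGAS, the enzyme that turns bound DNA into cGAMP. Its level was 15.8 CPM in M0, 19.9 in M1 and 21.1 in M2, and irradiated cells had 11.9 (RM0), 17.9 (RM1) and 15.9 (RM2). On this TMM scale each irradiated library was lower than its non-irradiated partner, and M0 and RM0 were the lowest of their series. In M1 cells the fall rests on the scaling, with 298 counts in RM1 and 294 in M1. Library totals put RM1 against M1 at -0.01. M1 polarization gave a shared log2 fold change of 0.46 ± 0.15 (SE, edgeR adjusted p = 0.0276), but with library totals it was 0.11 (adjusted p = 0.608), and the M1 against M0 pair went from 0.33 to -0.11. The shared irradiation effect was -0.32 ± 0.12 (edgeR adjusted p = 0.26). By state it was -0.41 in RM0 against M0 (interval -0.664 to -0.164), -0.15 in RM1 against M1 (-0.391 to 0.0835) and -0.40 in RM2 against M2 (-0.622 to -0.194). Without the M1 and RM1 libraries the irradiation effect was -0.41 and passed the test (edgeR adjusted p = 0.0302). In that fit 541 genes passed for irradiation, against 55 with all libraries. The shared M2 effect, 0.41 ± 0.15, missed the threshold with all libraries (edgeR adjusted p = 0.46) and passed it without the M1 and RM1 libraries (adjusted p = 0.0156). For M2 polarization that fit passed 1406 genes, against 22 with all libraries.

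Ifi204 (NM_008329, chr1:173747294-173766919, minus strand) encodes p204, a PYHIN family protein that binds DNA and feeds into STING. It stood at 238.0 CPM in M1 and 192.0 in RM1, against 37.1 in M0, 35.6 in M2, 31.8 in RM0 and 31.1 in RM2. Both M1 libraries thus stood far above the other 4, which lay close together. In the additive model Ifi204 was 6.22-fold higher with M1 polarization, a log2 fold change of 2.64 ± 0.12 (edgeR adjusted p = 3.27e-07), and it passed under all 5 alternatives with values of 2.29 to 2.66. The difference was 2.68 in M1 against M0 and 2.59 in RM1 against RM0. In bulk RNA, more cells expressing a gene and more RNA per cell cannot be told apart. After irradiation Ifi204 was lower in each state, by log2 fold changes of -0.22, -0.31 and -0.19 in M0, M1 and M2, and each counting interval excluded 0. With library totals these values were -0.27, -0.17 and -0.25, so their order depends on the scaling. The shared irradiation effect of -0.24 ± 0.1 did not pass (edgeR adjusted p = 0.287). In 16.8% of its 100-base windows the Ifi204 transcript matches another gene, mostly its neighbour Ifi211, so a part of its reads may have been assigned to either copy or to neither.

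Trex1 (NM_011637, chr9:109057932-109059723, minus strand) encodes the main exonuclease for cytosolic DNA in mammalian cells. Its CPM were 16.3 in M0, 62.8 in M1 and 12.9 in M2, and 18.8, 50.2 and 9.53 in RM0, RM1 and RM2. The order M1 over M0 over M2 held with and without irradiation. Trex1 was 3.18-fold higher with M1 polarization, a log2 fold change of 1.67 ± 0.16 (edgeR adjusted p = 2.37e-05), and it passed under all 5 alternatives with values of 1.33 to 1.69. In M2 cells the shared effect was -0.67 ± 0.17 (edgeR adjusted p = 0.26), and without the M1 and RM1 libraries it was -0.66 and passed (adjusted p = 4.99e-05). The fit without those libraries passed 1406 genes for M2 polarization, against 22 with all libraries. The M2 difference was -0.34 in M2 against M0 (interval -0.585 to -0.105) and -0.98 in RM2 against RM0 (-1.24 to -0.726). Irradiation gave 0.20 in M0 cells (interval -0.014 to 0.425), -0.32 in M1 cells (-0.46 to -0.187) and -0.43 in M2 cells (-0.712 to -0.158). With library totals these were 0.15, -0.18 and -0.48. The shared irradiation effect of -0.18 ± 0.13 did not pass (edgeR adjusted p = 0.543). All 1147 exonic bases of Trex1 also lie in transcripts annotated to Atrip on the same strand, so its reads could have been split or left uncounted. Atrip itself had between 188 and 214 counts in every library.

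Tmem173 (NM_001289591, chr18:35733678-35740554, minus strand) encodes STING, the cGAMP receptor. It was lowest in M1 at 29.6 CPM and RM1 at 30.6, and it stood at 40.7 in M0, 41.9 in M2, 41.1 in RM0 and 36.3 in RM2. The 2 M1 libraries did not overlap the other 4. Its shared M1 effect was -0.44 ± 0.13 (edgeR adjusted p = 0.0157). It passed under 3 of 5 alternatives, with adjusted p between 0.00367 and 0.0539. For irradiation the shared effect was -0.05 ± 0.1 (edgeR adjusted p = 0.852), and among the pairs the RM2 against M2 interval alone excluded 0, at -0.20 (-0.349 to -0.0589). Within each library, Ifi204 had 0.912, 0.85, 0.775 and 0.856 counts for each Tmem173 count in M0, M2, RM0 and RM2, but 8.05 in M1 and 6.28 in RM1. The ratio of the sensor to its adaptor was thus higher in both M1 libraries than in the other 4, and it is a ratio of counts with no correction for length.

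Mavs (NM_001206383, chr2:131234063-131248024, plus strand) encodes the adaptor of the RNA sensors. Its CPM ran from 49.1 in RM2 to 61.3 in RM0, with 55.4 in M0, 50.9 in M1, 50.6 in M2 and 49.7 in RM1. This was the narrowest relative range among the 9 tested genes. With M1 polarization the shared effect was -0.21 ± 0.12 (edgeR adjusted p = 0.174), and with library totals it was -0.56 and passed (adjusted p = 0.00838). The irradiation effect was 0.02 ± 0.1 (edgeR adjusted p = 0.927), with 0.15 in RM0 against M0 (interval 0.0264 to 0.265).

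Tbk1 (NM_019786, chr10:121546456-121586794, minus strand) encodes the kinase shared by the STING and MAVS routes. Without irradiation it ranged from 57.9 CPM in M0 through 63.0 in M2 to 64.1 in M1, and with irradiation from 59.7 in RM0 through 77.9 in RM2 to 87.2 in RM1. The irradiated polarized libraries were the 2 highest. Irradiation gave 0.44 in M1 cells (interval 0.325 to 0.563) and 0.31 in M2 cells (0.199 to 0.415), against 0.04 in M0 cells (-0.0738 to 0.164). With library totals these were 0.59, 0.25 and -0.0. The shared irradiation effect of 0.27 ± 0.11 did not pass (edgeR adjusted p = 0.3), and whether the states differ was not tested, since 1 library per condition leaves no spread for it. For M1 polarization, the shared effect of 0.35 ± 0.13 missed the threshold (edgeR adjusted p = 0.0507). It passed with DESeq2 size factors (adjusted p = 0.0389) and was 0.01 with library totals, under which the M1 against M0 pair turned from 0.15 to -0.29.

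Ikbke (NM_019777, chr1:131254602-131279563, minus strand) encodes IKKε, the close relative of TBK1. Its CPM were 25.7 in M0, 21.8 in M1 and 23.9 in M2, and 25.4, 18.0 and 20.4 in RM0, RM1 and RM2. The M1 libraries were lowest in each series, but the RM2 value lay between the 2 of them. Its shared M1 effect was -0.37 ± 0.14 (edgeR adjusted p = 0.0482), and it held under 1 of 5 alternatives. That was library totals (-0.71, edgeR adjusted p = 0.00469), the scaling that lowered the median of all genes. The highest adjusted p was 0.17, by DESeq2. Irradiation gave -0.28 in M1 cells (interval -0.511 to -0.0487), -0.23 in M2 cells (-0.422 to -0.0348) and -0.02 in M0 cells (-0.198 to 0.164). With library totals these were -0.14, -0.28 and -0.07. The shared irradiation effect was -0.17 ± 0.11 (edgeR adjusted p = 0.494). The kinases moved apart within libraries: Ikbke had 0.444 counts for each Tbk1 count in M0 and 0.426 in RM0, 0.379 in M2 and 0.262 in RM2, and 0.341 in M1 and 0.206 in RM1. The counting intervals of M1 (0.299 to 0.387) and RM1 (0.182 to 0.234) did not overlap, nor did those of M2 (0.341 to 0.422) and RM2 (0.234 to 0.292), while those of M0 and RM0 did.

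Irf3 (NR_045611, chr7:44997648-45002848, plus strand) encodes the transcription factor that TBK1 phosphorylates. Both M1 levels, 25.4 CPM in M1 and 25.0 in RM1, lay below the 37.9 of M0, 33.7 of M2, 32.2 of RM0 and 32.9 of RM2. The shared M1 effect was -0.47 ± 0.13 (edgeR adjusted p = 0.0118) and passed under all 5 alternatives, with values of -0.81 to -0.45. Irradiation gave -0.23 in M0 cells (interval -0.389 to -0.079), and -0.02 and -0.04 in M1 and M2 cells with intervals that held 0. The ratio of Irf3 to Tbk1 counts was 0.654 in M0, 0.539 in RM0 and 0.535 in M2. It was 0.422 in RM2 (0.384 to 0.462), which overlapped M1 at 0.397 (0.351 to 0.447), and 0.287 in RM1 (0.257 to 0.32). Of the Irf3 exons, 88 bases overlap Bcl2l12 on the opposite strand, and the sources used here do not state whether counting used strand.

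**Figure D3:**
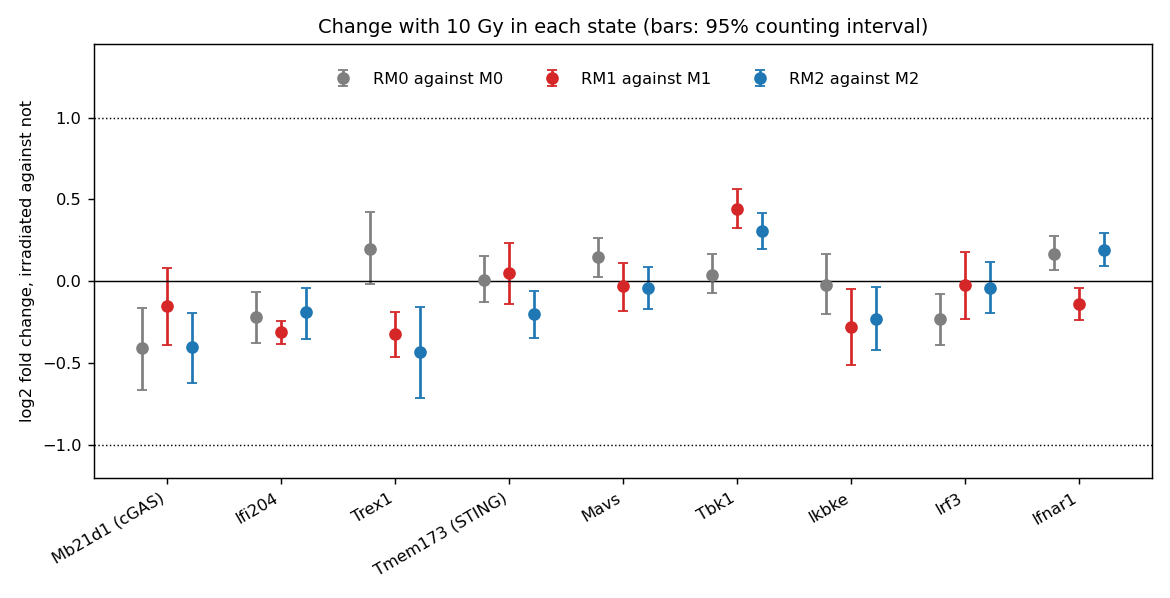
Log2 fold change of irradiated against non-irradiated cells (vertical axis) in M0, M1 and M2 cells for 9 genes, with bars for the 95% counting interval and dotted lines at 2-fold. No point reaches a dotted line, Tbk1 lies above 0 in M1 and M2 cells, and Ifi204 lies below 0 in each state.

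**Figure D4:**
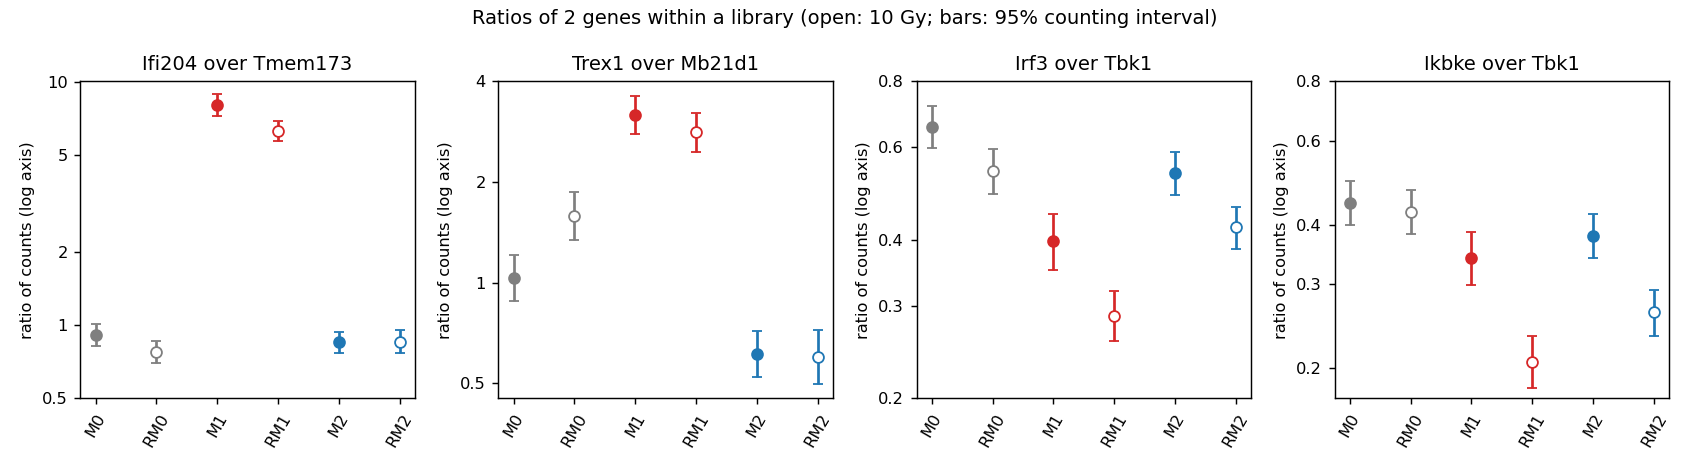
Counts of one gene over another within each library (vertical log axes) for 4 pairs of genes, with 95% counting intervals and open points for irradiated libraries. Ifi204 over Tmem173 reaches 8.05 in M1 and 6.28 in RM1, and Ikbke over Tbk1 falls to 0.206 in RM1.

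Ifnb1 (NM_010510, chr4:88522025-88522794, minus strand) encodes interferon-beta, the first product of the pathway. M0 cells gave 10 counts, M1 and M2 cells 6 each, and RM0, RM1 and RM2 cells 3, 1 and 0. These are 0.504, 0.406 and 0.296 CPM without irradiation and 0.153 and 0.06 CPM in RM0 and RM1, and the 0 in RM2 allows up to 0.151 CPM. Each irradiated library was lower than its partner, and the irradiated libraries had 4 counts together against 22, a depth-corrected ratio of 0.178 (counting interval 0.0446 to 0.524). RM0 against M0 passed the 2-fold rule (log2 fold change -1.23, where 1.54% of all genes were called), but its counting interval, -4.22 to 0.238, held 0. It could be called there only because M0 had just the 10 counts that the rule requires, while the M1 and M2 pairs had too few. Without that filter both pairs were called as well, and the share of all genes called without it is not given here. None of the other 9 genes was called in M0, M1 (5.34% of all genes) or M2 cells (1.97%). In the fit without a filter on counts the shared irradiation effect was -2.42 ± 0.87 (edgeR adjusted p = 0.244). M1 and M0 differed by -0.25 with an interval of -2.06 to 1.29, so at this depth neither a rise nor a fall with LPS and IFN-γ could be detected at the time sampled.

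The promoter of Ifnb1 is printed because it carries, within the 250 bases before the start site, the sites through which IRF3 and NF-κB are known to act. Sequences are from RefSeq promoter tables on GRCm38.p6, which held 9 windows for 8 of the 10 genes and none for Ifi204 and Tmem173. In the Ifnb1 promoter (chr4:88522795-88523044, minus strand) capitals mark 3 matches to the short IRF motif AANNGAAA and 1 match to the NF-κB motif, which was searched as GGGA, any 2 bases and TTCC.
Ifnb1: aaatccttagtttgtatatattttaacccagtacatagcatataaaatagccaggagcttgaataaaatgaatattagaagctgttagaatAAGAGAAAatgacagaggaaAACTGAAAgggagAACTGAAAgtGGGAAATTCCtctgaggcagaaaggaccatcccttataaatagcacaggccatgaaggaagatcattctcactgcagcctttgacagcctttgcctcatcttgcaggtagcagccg
On either strand, 23.9% of the 32851 promoter windows of 300 bases hold AANNGAAA and 1.47% hold the NF-κB motif. Among the other genes described here, Ikbke held 1 match to AANNGAAA, at 132 bases before the start site or -132, and Ifnar1 held 1 match at -5 to the gamma-activated site TTCNNNGAA, which 8.3% of windows hold. None of the 9 windows held the interferon-stimulated response element, searched as GAAA, any 2 bases and GAAA, a longer motif that contains AANNGAAA and that 3.44% of all windows hold. A match of letters is a description of the window and not a measured binding site.

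Ifnar1 (NM_010508, chr16:91485215-91510522, plus strand) encodes a chain of the receptor that all type I interferons bind. Its CPM were 71.2 in M0, 114.0 in M1 and 73.0 in M2, and 80.3, 104.0 and 83.5 in RM0, RM1 and RM2. Both M1 libraries were above the other 4. Ifnar1 was 1.44-fold higher with M1 polarization, a log2 fold change of 0.53 ± 0.13 (edgeR adjusted p = 0.00693), and under library totals it was 0.18 and did not pass (adjusted p = 0.229). For each Irf3 count there were 1.88 Ifnar1 counts in M0 and 4.48 in M1, and 2.49 in RM0 and 4.14 in RM1. The shared irradiation effect was 0.08 ± 0.11 (edgeR adjusted p = 0.764).

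The rest of the pathway was described through 8 lists of other genes, 112 in all, of which 90 had enough counts to test. The M1 effect passed upward for 41 and downward for 14 of the 90, beside 23.3% and 24.3% of all genes. This balance depends on the scaling: with library totals, a count added after seeing the data, 31 passed upward and 32 downward, beside 9.43% and 41.0% of all genes. Irradiation passed for 1, Cxcl10, downward (0.475% of all genes), and the M2 effect for none of the 90 by edgeR (0.19%). Of 10 RNA sensors and regulators, 7 rose and 1 fell (median log2 fold change 0.72, against -0.02 over all genes), among them Ddx58, which encodes RIG-I, by 1.04 ± 0.13 (edgeR adjusted p = 9.62e-05), Ifih1, which encodes MDA5, by 1.09 ± 0.15 (0.000193), and the helicase gene Ddx60 by 1.78 ± 0.17 (2.04e-05). The gene that fell was Nlrx1, a mitochondrial NOD-like protein gene, at -0.57. With library totals 4 passed upward (Ddx58, Ifih1, Ddx60 and Trim25) and 1 downward.

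Of 16 DNA sensors tested, 7 rose and 4 fell, with a median of 0.06, whereas with library totals 6 rose and 8 fell. The shares of all genes were 23.3% higher and 24.3% lower, or 9.43% and 41.0% with library totals. The largest rises among those tested were in Pyhin1, at 4.34 ± 0.18 (edgeR adjusted p = 8.65e-08), and Mnda, at 2.52 ± 0.13 (4.74e-07), which like Ifi204 belong to the PYHIN family, and in Zbp1, a sensor of Z-form nucleic acids, at 3.32 ± 0.23 (2.38e-06). Aim2, of the same family, did not pass (0.20 ± 0.15, edgeR adjusted p = 0.299). Ifi205, also of that family, had 3 counts in M0 and 94 in M1, but too few elsewhere for the test. The 4 that fell were Prkdc at -1.82 and Xrcc5 at -1.03, which encode parts of the DNA-dependent protein kinase of DNA end joining, Polr3a at -0.67 and G3bp1 at -0.64. Among 10 nucleases and other limits on ligands, 2 rose and 3 fell, or 1 and 5 with library totals. Samhd1, a dNTP hydrolase gene, rose by 0.94 ± 0.14 (edgeR adjusted p = 0.000444), and Rnaseh2b by 0.50 ± 0.18 (0.0431, and 0.518 with library totals). The lysosomal nuclease gene Dnase2a fell, at -0.73 ± 0.13 (0.000938), as did Atm at -0.49 and Rnaseh2a at -0.39.

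Of 19 genes of STING traffic and turnover 5 rose and 2 fell (median 0.03), and with library totals 1 rose and 9 fell. Over all genes 23.3% rose and 24.3% fell, or 9.43% and 41.0% with library totals. The trafficking genes Npc1, Surf4 and Tmed2 rose by 0.69 ± 0.12, 0.60 ± 0.14 and 0.56 ± 0.12 (edgeR adjusted p = 0.000791, 0.00452 and 0.00335), Stim1 by 0.49 and Rhbdf2 by 0.42. With library totals Surf4 and Tmed2 did not pass (adjusted p = 0.0666 and 0.13). Zdhhc3 and Slc19a1, the latter a cyclic dinucleotide importer gene, were at -0.35 and -0.47. Of 17 genes of TBK1 and IRF3 complexes 2 rose and 4 fell (median -0.1), or 2 and 9 with library totals. The interferon-inducible factor gene Irf7 rose by 3.22 ± 0.22 (edgeR adjusted p = 2.32e-06) and Dtx3l by 1.32 ± 0.14 (4.75e-05). Among those that fell were Crebbp at -0.70, Ikbkb at -0.62 and Irf5 at -0.51.

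All 9 receptor signaling genes and all 9 tested transcripts known to be induced through IRF3 or ISGF3 rose (23.3% of all genes). Their medians were 1.09 and 3.17. With library totals 8 and 9 of them passed upward and none downward, beside 9.43% and 41.0% of all genes. In the first group Stat2 rose by 1.98 ± 0.12 (edgeR adjusted p = 1.43e-06) and the feedback inhibitor gene Socs1 by 2.87 ± 0.45 (0.000492). In the second group Ifit3 rose by 4.18 ± 0.22 (edgeR adjusted p = 4.31e-07), Ifit2 by 3.94 ± 0.26 (2.09e-06) and the chemokine gene Ccl5 by 3.94 ± 0.19 (3.27e-07). Responses to LPS, to the added IFN-γ and to interferon made by the cells cannot be told apart here. Of 17 further type I interferon genes 16 were at 0 in all 6 libraries and Ifnk had 1 count in M0, against a floor of 3 counts in a library.

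**Figure D5:**
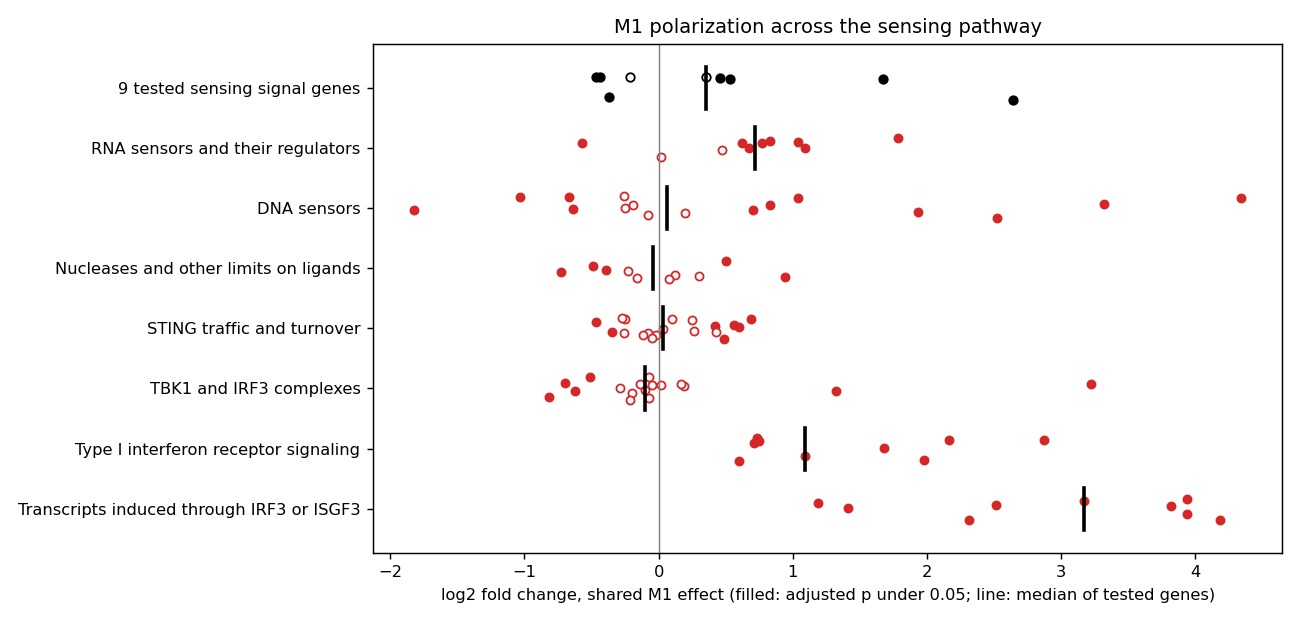
Log2 fold change of the shared M1 effect (horizontal axis) for the 9 tested genes described here and the tested genes of 7 lists of the pathway, with filled points for an edgeR adjusted p under 0.05 and a line at each median. Receptor signaling genes and transcripts induced through IRF3 or ISGF3 lie wholly to the right of 0 with medians of 1.09 and 3.17, whereas the medians of STING traffic and of TBK1 and IRF3 complexes are 0.03 and -0.1 (-0.32 and -0.44 with library totals).

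The transcripts induced through IRF3 or ISGF3 were also the list that stood lowest after irradiation, with a median shared effect of -0.52 over 9 genes against -0.01 over all genes. Cxcl10, a chemokine gene, had 1278 counts in M1 and 242 in RM1, 117 in M0 and 64 in RM0, and 120 in M2 and 46 in RM2. Its shared irradiation effect was -1.80 ± 0.27 (edgeR adjusted p = 0.0215), and the call was lost with DESeq2 (-1.61, adjusted p = 0.0938) and with library totals (-1.72, 0.117). Without the M1 and RM1 libraries its effect was -1.09. By pairs, 4 of 10 of these genes were at least 2-fold lower in RM1 than M1 (Ifit2, Ifit3, Cxcl10 and Mx1, where 2.25% of all genes were called lower) and 2 of 9 in RM2 than M2 (Ifit3 and Cxcl10, where 0.932% were), and 0 of 9 were called in RM0 against M0.

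The interferon-stimulated response element that was missing from the sensing genes' windows was present in 6 of 9 windows of that list. It was in 4 of 10 windows of the RNA sensors, 4 of 16 of the DNA sensors (windows of 12 genes) and 11 of 16 of the other type I interferon genes. A single stretch around it is shown for some of the genes named above and for Ifi203 and Ifit1. Further matches, among them in Stat2, Socs1 and Ifi205, are not shown. The match is in capitals, each stretch read 5′ to 3′ on the strand of its gene (GRCm38.p6: Cxcl10 chr5:92349078-92349117, minus; Ifit3 chr19:34583358-34583397, plus; Ifit1 chr19:34640770-34640809, plus; Ddx60 chr8:61928019-61928058, plus; Ifi203 chr1:173942503-173942542, minus).
Cxcl10: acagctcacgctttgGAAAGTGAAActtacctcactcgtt
Ifit3: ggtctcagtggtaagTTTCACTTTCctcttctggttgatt
Ifit1: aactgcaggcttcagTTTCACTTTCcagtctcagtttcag
Ddx60: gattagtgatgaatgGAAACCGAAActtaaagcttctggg
Ifi203: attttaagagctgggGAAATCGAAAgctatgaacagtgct
Compared with these, the Ifnb1 promoter above holds AANNGAAA 3 times but not the longer element, and in Ifit3 and Ifit1 the element is read on the opposite strand. Ifi203, a PYHIN family neighbour of Ifi204, had 2261 counts in M0 and 3061 in M1 and rose in M1 by 1.04 ± 0.13 (edgeR adjusted p = 0.000121).

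The genes whose profile over the 6 libraries was most like that of each sensing gene in shape were found by Pearson's r of log2 CPM among 10189 genes. This r ignores the level and the size of a change. Ptgr1, for example, had 588 counts in M0 and 904 in M1, where Ifi204 had 736 and 3524. These r values rest on 6 libraries that differ mainly by M1 polarization and are given as a description. For Ifi204 the nearest were Ptgr1 (0.9998), Trim30a and Eif1ax, with 942 genes above an r of 0.95. For Trex1 they were Upf1 (0.9988), Slpi and Gm2382, for Ifnar1 Sde2 (0.9993), Slc30a7 and Vim, for Tmem173 Pctp (0.9989), Bin1 and Cnpy2, and for Irf3 Scrn2 (0.997), Rnf8 and Hirip3, with 332 to 838 genes above that level. Ikbke was nearest to Ercc2 (0.9987), Eif6 and Tex264, and Tbk1 to Zfp871 (0.9959), Trove2 and Cd300lh. Mb21d1 and Mavs had the fewest neighbours, with 3 and 14 genes above 0.95, led by Hmgn5 (0.9759), Diap3 and E2f6 for Mb21d1 and by Fcna (0.9899), Sipa1 and Rnf41 for Mavs.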

How the data were processed

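RNA-seq reads were counted by the authors per RefSeq gene, and the deposited values are raw counts, 1 table per library. The submitters' processing notes name Trimmomatic 0.36, HISAT2 2.2.1, HTSeq 0.11.3 and mm10, without roles. Whether counting used strand is not given in the sources used here. As deposited, 27 symbols had turned into dates, none of them a gene described here.

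The 10 genes and the pathway lists were chosen with earlier results of these data known. Counts were scaled by TMM in edgeR 4.0.16 (R 4.3.3) over the 11574 genes that reached 10 counts in 3 libraries or more. Pairs of libraries were compared as log2 fold changes with a prior count of 2. A 2-fold call needed at least 10 counts in 1 of the 2 libraries. The 95% intervals are by the exact Clopper-Pearson method, from how a gene's reads divide between both libraries, and like the floor of 3 counts they cover counting error only. Shared effects of polarization and irradiation were tested, two-sided, by the quasi-likelihood method of edgeR in an additive fit to all 6 libraries, which leaves 2 residual degrees of freedom. A fit that leaves out a state has fewer still, so its p-values, however small, rest on even less spread. Adjustment was by Benjamini-Hochberg, with a threshold of 0.05. The SE was derived from the F statistic. The M1 and M2 effects share the M0 and RM0 libraries. Since the libraries are not replicate cultures, the spread behind these p-values is the departure from additivity between conditions. DESeq2 1.42.0 was an alternative. Positions and overlaps are from the count tables and GENCODE M21.

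All 10 genes were named, with up to 3 genes per list of largest absolute M1 change among those past the test, listed genes past the irradiation test, and the 3 genes most like each of the 9 with a mean of at least 50 counts. Named outside this rule, after their values were seen, were list members that complete a count of 5 or fewer, and Mx1, Ifit1, Ifi203, Ifi205, Aim2, Trim25 and Ifnk. Some genes that the rule takes are not reported here.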

Additional observations from a re-analysis of the deposited data

Results flagged for a closer look

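Ifnar1 moved in opposite directions with irradiation. Its log2 fold change was 0.17 in RM0 against M0 (counting interval 0.0697 to 0.279) and 0.19 in RM2 against M2 (0.0929 to 0.297), but -0.14 in RM1 against M1 (-0.237 to -0.0418). The intervals lie on opposite sides of 0 and cover counting error only, and the difference between states was not tested, because 1 library per condition leaves no spread for it. With library totals the RM1 against M1 value was 0.00.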

How the results depend on the processing

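Of 153 recomputed shared effects of single genes, 135 kept their direction and side of the threshold. The 3 that reversed were all within 0.05 of 0: Ifi204 in M2 cells (0.01 with library totals), Tmem173 under irradiation (0.03 without M2 and RM2, with a range of -0.09 to 0.03 over the states left out) and Mavs under irradiation (-0.04 without M0 and RM0, range -0.04 to 0.06). Sensing genes past the M1 test went from 7 to 4 with the DESeq2 Wald test and to 4 without M2 and RM2, each time Ifi204, Trex1, Ifnar1 and Irf3. Over all genes the M1 count of 5509 became 4469 and 4411 in those settings. Without M1 and RM1, 2 sensing genes (Mb21d1, Trex1) passed the M2 test, where 1406 of the 11574 genes passed. Leaving out a state put 0 to 1 past the irradiation test. The 1 was Mb21d1 without M1 and RM1, where 541 genes passed. With all libraries both counts of sensing genes were 0. Among the 2-fold counts, Ifnb1 left RM0 against M0 (1 to 0) at 50 counts or more, entered RM1 against M1, RM2 against M2 and RM2 against RM0 (0 to 1) without a filter, and entered M2 against M0 (0 to 1) at 1.5-fold, where Trex1 entered RM2 against RM0 (0 to 1). The shares of all genes called under those settings are not given here, so these calls are not read as results about Ifnb1 or Trex1. With library totals Irf3 was at -1.01 in M1 against M0. Over all genes, the M2 count of 22 became 42 with DESeq2, 3 with library totals, 56 without a filter and 1406 without M1 and RM1. The irradiation count of 55 became 115, 3 and 156 in that order, and 78 to 668 when a state was left out. The M1 split was 2692 higher and 2817 lower, against 1091 and 4750 with library totals. The causes were not tested. Depth limits Ifnb1 and the other interferon genes, where a count of 0 allows 3. The labels give no replicate numbers to pair, and the irradiation effect was fitted with the state as a term.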
